A study of Mus musculus with 15 samples.

Results

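The genes described here are 10 markers of the blood vessels of the brain, and they were taken from a list of endothelial and pericyte markers rather than from their values. Earlier results of these data were, however, known when the list was chosen. The 6 endothelial genes are *Cldn5*, *Pecam1*, *Slc2a1*, *Mfsd2a*, *Abcb1a*, and *Tek*, and the 4 pericyte genes are *Pdgfrb*, *Rgs5*, *Abcc9*, and *Notch3*. All 10 were found once each among the 19475 genes of the deposited table, and all 10 passed the filter on low values, which kept 16507 genes. RNA-Seq had been carried out on brains of E16.5 mouse embryos, with 5 WT, 5 heterozygous Tbr1+/K228E, and 5 homozygous Tbr1K228E/K228E embryos, each group with 3 females and 2 males. Tbr1 encodes a T-box transcription factor of cortical projection neurons, and K228E is a knock-in mutation in exon 1 that the mutant embryos carry in every cell. The line was made in C57BL/6J mice, and its neomycin cassette had been removed with protamine-Cre. No agent was given to any group. The paper names the tissue as forebrain and the labels name it as brain, so the dissection cannot be settled from the descriptions.

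Vessels grow into the embryonic brain from a plexus in the meninges, the membranes that cover it, and their endothelial cells take on barrier properties as they do so. Neural cells release Wnt7a and Wnt7b, which act on the endothelium through β-catenin to turn on barrier genes. Endothelial cells release Pdgfb, which draws in pericytes through the receptor Pdgfrb, and pericytes in turn limit transport across the vessel wall. TBR1 itself is a protein of neurons.

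A TCF/LEF core is taken here as 1 form of the DNA word read by the partners of β-catenin. Upstream sequences are shown for 3 genes whose start site is the same in RefSeq and GENCODE. They set a barrier gene that carries this core beside one that does not. These are the 250 bases before the start site, from RefSeq on GRCm38, written 5′ to 3′ on the strand of the gene, and capitals mark a TCF/LEF core (CTTTGA on either strand). The window of *Mfsd2a* lies at chr4:122961189-122961438 on the minus strand, that of *Rgs5* at chr1:169655251-169655500 on the plus strand, and that of *Cldn5* at chr16:18776597-18776846 on the plus strand.
Mfsd2a: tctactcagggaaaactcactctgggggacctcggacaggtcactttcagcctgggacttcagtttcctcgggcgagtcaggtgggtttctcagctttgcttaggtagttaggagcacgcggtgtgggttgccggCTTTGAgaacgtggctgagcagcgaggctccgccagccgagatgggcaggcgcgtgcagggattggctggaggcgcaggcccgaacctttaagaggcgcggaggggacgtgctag
Rgs5: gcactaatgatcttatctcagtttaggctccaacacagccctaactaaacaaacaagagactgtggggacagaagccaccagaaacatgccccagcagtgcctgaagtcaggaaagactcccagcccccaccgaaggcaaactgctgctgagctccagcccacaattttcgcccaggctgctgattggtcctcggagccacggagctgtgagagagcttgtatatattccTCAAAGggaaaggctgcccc
Cldn5: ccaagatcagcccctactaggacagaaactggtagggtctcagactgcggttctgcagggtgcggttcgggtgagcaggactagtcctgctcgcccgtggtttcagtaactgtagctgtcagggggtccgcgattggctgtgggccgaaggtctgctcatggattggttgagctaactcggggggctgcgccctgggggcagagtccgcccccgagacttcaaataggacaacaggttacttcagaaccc
RefSeq windows were matched for 8 of the 10 genes, all but *Pecam1* and *Pdgfrb*. The TCF/LEF core occurred in 3 of these 8, *Mfsd2a*, *Abcb1a*, and *Rgs5*, and in 13.8% of 32851 windows of the same length over all genes. For this core and those below, only the exact letters were searched. A window counted without a core may thus hold another form of the site. The T-box core GGTGTGA occurred in 0 of 8 (3.33% of all windows), the ETS core CCGGAA in 0 of 8 (12.0%), and the RBPJ core TGGGAA in 1 of 8, *Abcc9* (21.6%). These letters were searched on both strands, and no window of the 8 held cores of different kinds, although the window of *Abcb1a* held the TCF/LEF core at 2 places. For *Slc2a1*, *Abcb1a*, *Abcc9*, and *Notch3* the RefSeq window does not end at the start of the GENCODE gene. The window of *Abcb1a* lies far upstream, at chr5:8566841-8567090, whereas its GENCODE gene starts at 8660077. With only 8 windows, these counts cannot show an excess or a lack of any core.

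*Tbr1* itself had a normalized read count of 2097 to 4871 in WT, 4738 to 8543 in Tbr1+/K228E, and 7148 to 16015 in Tbr1K228E/K228E embryos. The depth estimated from the lowest values was 26.3 to 38.0 M reads per embryo (median 29.8 M). Embryos of a genotype differed in their transcripts of other tissues. The mean log2 value of 13 meningeal genes, called the meningeal score here, was 4.97 in WT replicate 3 and 5.51 and 5.30 in Tbr1K228E/K228E replicates 3 and 4, against 8.20 to 10.30 in the other 12 embryos. *Slc22a6*, a transporter of the meninges, was listed at 0 in these 3 embryos and was at least 161 in the others, and the collagen gene *Col1a1* was at most 23.4 in them and at least 664 in the others. *Mrc1*, a marker of the macrophages of the brain borders, was at most 33.3 in the 3 embryos and at least 195 in the others. Of these 3 embryos, 1 was WT, 0 were Tbr1+/K228E, and 2 were Tbr1K228E/K228E. The summed count of 16 Hox genes of the hindbrain ranged from 3.66 to 3925, both in Tbr1+/K228E embryos.

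Among the endothelial genes, *Cldn5* (ENSMUSG00000041378, chromosome 16, 18776847 to 18778262, plus strand of GRCm38) encodes claudin-5, the tight junction protein that seals brain endothelium. Its normalized read count was 1762, 2059, 1125, 1554, and 1713 in WT replicates 1 to 5. In Tbr1+/K228E replicates 1 to 5 it was 1915, 1866, 1970.2, 1439, and 1702, and in Tbr1K228E/K228E replicates 1 to 5 it was 1791, 1512, 1179, 1188, and 2053. The 3 lowest values were those of the 3 embryos with a low meningeal score, and the 3 genotypes overlapped. The log2 fold change relative to WT was 0.13 (standard error 0.17) in Tbr1+/K228E and -0.10 (0.17) in Tbr1K228E/K228E embryos, and between the mutants it was -0.23, the largest difference of any of the 10 genes in the 3 comparisons (95% interval -0.59 to 0.13).

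*Pecam1* (chromosome 11, 106654217 to 106750628, minus strand) encodes an adhesion molecule of all endothelium, with or without a barrier. Mean counts ± SD (n = 5 each) were 774 ± 129 for WT, 820.1 ± 96.4 for Tbr1+/K228E, and 764 ± 193 for Tbr1K228E/K228E embryos, with 555 to 1023 across all 15 embryos. *Tek* (chromosome 4, 94739289 to 94874976, plus strand) encodes Tie2, the angiopoietin receptor, and varied more between embryos than any other member. It was 608, 685, 343, 455, and 566 in WT and 541, 689, 656, 398, and 436 in Tbr1+/K228E replicates 1 to 5. In Tbr1K228E/K228E replicates 1 to 5 it was 622, 535, 313, 327, and 676, so that each mutant group spanned most of the WT range. The highest embryo had 2.20 times the value of the lowest, whereas the log2 fold change of Tbr1K228E/K228E embryos relative to WT was -0.14 (standard error 0.24). The 95% interval of this difference runs from a change of -36.4% to one of 30.4%.

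Of the 3 transporters, *Slc2a1* (chromosome 4, 119108711 to 119137983, plus strand) encodes Glut1, which carries glucose across the barrier, and is also used by other cells. WT embryos had a mean count ± SD of 2235 ± 314, Tbr1+/K228E embryos of 2363 ± 169, and Tbr1K228E/K228E embryos of 2148 ± 464 (n = 5 each). *Abcb1a* (chromosome 5, 8660077 to 8748575, plus strand) encodes the efflux pump P-glycoprotein, and its counts were 357 ± 68.5, 355 ± 67.7, and 326 ± 94.9 (SD, n = 5 each) in the same order. Its near copy *Abcb1b* had 9.84 to 31.3 across the embryos, and how reads shared by the 2 genes were divided is uncertain.

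*Mfsd2a* (chromosome 4, 122946850 to 122961188, minus strand) encodes the transporter that carries lysophosphatidylcholine with docosahexaenoic acid into the brain and holds down vesicle traffic in barrier endothelium. It was 716, 744, 832, 773, and 748 in WT and 775, 652, 747, 724, and 901 in Tbr1+/K228E replicates 1 to 5. In Tbr1K228E/K228E replicates 1 to 5 it was 772, 688, 832, 658, and 772. Here the embryos with a low meningeal score were not low together. WT replicate 3 and Tbr1K228E/K228E replicate 3 were the highest of their genotypes, whereas Tbr1K228E/K228E replicate 4 was the lowest of its own. The log2 fold change of Tbr1K228E/K228E embryos relative to WT was -0.04, and its 95% interval runs from -13.8% to 10.1% in percent change.

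Among the pericyte genes, *Pdgfrb* (chromosome 18, 61045150 to 61085061, plus strand), the receptor for Pdgfb, was 1432, 1399, 817, 1111, and 1169.5 in WT replicates 1 to 5. It was 1267, 1359.7, 1256, 888, and 1202 in Tbr1+/K228E and 1230.1, 1037, 717, 819.5, and 1495 in Tbr1K228E/K228E replicates 1 to 5. The genotypes overlapped, and WT replicate 3, Tbr1+/K228E replicate 4, and Tbr1K228E/K228E replicates 3 and 4 were the 4 lowest embryos. Its log2 fold change of -0.18 (standard error 0.19) was the lowest of the 10 genes between Tbr1K228E/K228E and WT embryos.

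*Rgs5* (chromosome 1, 169655501 to 169695813, plus strand), a regulator of G protein signaling that marks pericytes, had mean counts ± SD of 2993 ± 349.8 for WT, 2954 ± 387 for Tbr1+/K228E, and 2927 ± 483 for Tbr1K228E/K228E embryos (n = 5 each). *Abcc9* (chromosome 6, 142587862 to 142702315, minus strand) encodes SUR2, the regulatory subunit of a potassium channel of pericytes. It had 897 ± 69.0, 864 ± 69.0, and 842 ± 140.5 (SD, n = 5 each) in the same order. *Slc2a1*, *Abcb1a*, *Abcc9*, and *Notch3* overlap other annotated genes, which are not among the genes analysed here, and the kit that was used does not mark the strand.

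*Notch3* (chromosome 17, 32120820 to 32166852, minus strand), the Notch receptor of mural cells, was 2316, 2128, 1844, 2326, and 2143 in WT and 2128, 1827, 2015, 1819, and 2163 in Tbr1+/K228E replicates 1 to 5. In Tbr1K228E/K228E replicates 1 to 5 it was 2135, 2072, 1693, 2013, and 2157. Genotype took a larger share of its variance than of any other member, 14.6%, against 0.811% for *Rgs5*. Group means take up some variance also with no effect. The limma F-test for any difference among the genotypes gave an unadjusted p of 0.336 for *Notch3*. Its log2 fold change was -0.11 in Tbr1+/K228E and -0.10 in Tbr1K228E/K228E embryos (standard error 0.08 each), which is within the spread of the embryos.

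**Figure D1:**
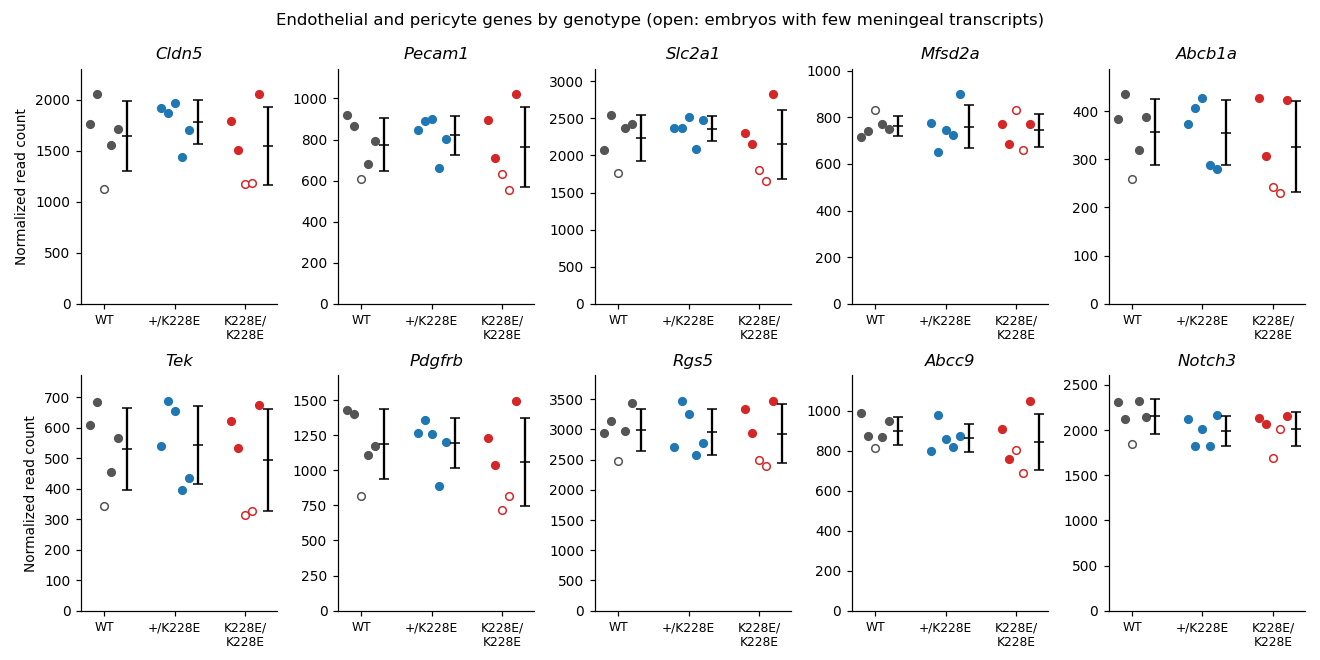
Normalized read count (vertical axis, from 0) of each of the 10 genes in every embryo, by genotype; points are embryos in order of replicate number, bars are mean ± SD (n = 5), and open points are the 3 embryos with a low meningeal score. The genotypes overlap in all 10 panels, and the open points are the lowest for 7 genes, such as *Tek* with 313 to 343 against 398 to 689, but not for *Mfsd2a*.

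Levels of different genes can be compared per kilobase of exon. On this scale, the mean over 15 embryos of the normalized read count per kb was 1169 for *Cldn5*, 651 for *Rgs5*, 641 for *Slc2a1*, 336 for *Mfsd2a*, 254 for *Notch3*, and 209 for *Pdgfrb*. *Pecam1* had 126, *Tek* 111, *Abcc9* 104, and *Abcb1a* 63.1 per kb. Of the neighbors in this order, *Rgs5* exceeded *Slc2a1* in 8 of 15 embryos and *Tek* exceeded *Abcc9* in 9 of 15, so these pairs cannot be ordered. *Notch3* exceeded *Pdgfrb* and *Pecam1* exceeded *Tek* in 13 of 15 embryos each, and the other 5 neighbors kept their order in all 15.

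None of the 10 genes passed the threshold for a difference between genotypes by limma with Benjamini–Hochberg correction over the 16507 tested genes. In Tbr1+/K228E relative to WT embryos, 0 of 10 genes passed an adjusted p of 0.05 (background over all tested genes 0%), and 0 passed an unadjusted p of 0.05 (background 1.79%). Log2 fold changes ran from -0.11 for *Notch3* to 0.13 for *Cldn5*, with 5 genes above 0 and 5 below and a median of 0.01. In Tbr1K228E/K228E relative to WT embryos, 0 of 10 passed the adjusted threshold (background 0.127%) and 0 the unadjusted one (background 3.23%). Log2 fold changes were then below 0 for all 10 genes, from -0.18 for *Pdgfrb* to -0.04 for *Mfsd2a*, with a median of -0.10 where the median of all tested genes was -0.002. For the same comparison, the paper reports negative enrichment of endothelial and mural gene sets by gene set enrichment analysis. That method ranks all genes and scores whole sets, whereas the thresholds here apply to single genes. No set test was run here. Between Tbr1K228E/K228E and Tbr1+/K228E embryos, 0 of 10 passed (background 0.0788%, and 3.3% unadjusted), with 9 genes below 0, *Notch3* at 0.02, and a median of -0.14.

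The smallest adjusted p-values of the 10 genes in these 3 comparisons were 0.999, 1.00, and 0.996 (limma, Benjamini–Hochberg). The test for any difference among the 3 genotypes also called 0 of 10 genes (background 0.0969%). In no comparison did 2 genotypes fail to overlap for any of the 10 genes, which among all tested genes was the case for 0.26% in Tbr1+/K228E against WT, 0.594% in Tbr1K228E/K228E against WT, and 0.878% between the mutants. Two-sided exact permutation tests of 5 against 5 embryos gave 0 of 30 p-values under 0.05, with smallest values of 0.222, 0.341, and 0.230 in the 3 comparisons, where the design allows 0.00794. A miss of the threshold does not show that the genotypes were alike. The 95% intervals of Tbr1K228E/K228E against WT embryos reach from -0.65 to 0.38 on the log2 scale over the 10 genes, and p-values measure the spread between the embryos as labelled. The 3 comparisons share embryos and are not independent of one another.

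The direction shared by the 10 genes in Tbr1K228E/K228E embryos was not kept when the 3 embryos with few meningeal transcripts, 2 Tbr1K228E/K228E and 1 WT, were left out. The summed count of the 13 meningeal genes ran from 1458 to 37152 in WT, from 6130 to 22343 in Tbr1+/K228E, and from 1602 to 26300 in Tbr1K228E/K228E embryos. In these 3 embryos, 7 of the 10 genes (*Cldn5*, *Pecam1*, *Slc2a1*, *Abcb1a*, *Tek*, *Pdgfrb*, and *Rgs5*) were lower than in all of the other 12, whatever the genotype. *Abcc9* and *Notch3* were so in 1 of the 3 embryos each, and *Mfsd2a* in 0. With only the other 12 embryos, an alternative added after the data had been seen, 6 genes had a log2 fold change above 0 and 4 below it relative to WT, from -0.07 to 0.10, and 0 passed the adjusted threshold. With the meningeal score as a covariate over all 15 embryos, 5 were above 0 and 5 below, from -0.06 to 0.07. The standard errors were 0.06 to 0.10 with the score against 0.08 to 0.24 without it. The 95% intervals narrowed to a span from -0.24 to 0.25. The score had r = 0.94 with the endothelial and with the pericyte mean (n = 15, genotype means removed). Its 13 genes had a median log2 fold change of -1.10 between Tbr1K228E/K228E and WT embryos. Either fit would also take out a vessel change that the meningeal genes share, so neither can show that there was none. Between the mutants, the same covariate left 7 genes above 0 and 3 below. In Tbr1+/K228E relative to WT embryos, *Notch3* then had a log2 fold change of -0.14 (unadjusted p = 0.0400, adjusted p = 0.996, limma), and it was the sole gene of 10 under an unadjusted 0.05 there (background 2.62%). In the 12 embryos it stood at -0.17 (unadjusted p = 0.0161, adjusted p = 0.933, limma), again the sole one of 10 (background 3.62%). In bulk tissue, fewer vessel cells and less RNA per vessel cell cannot be told apart.

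**Figure D2:**
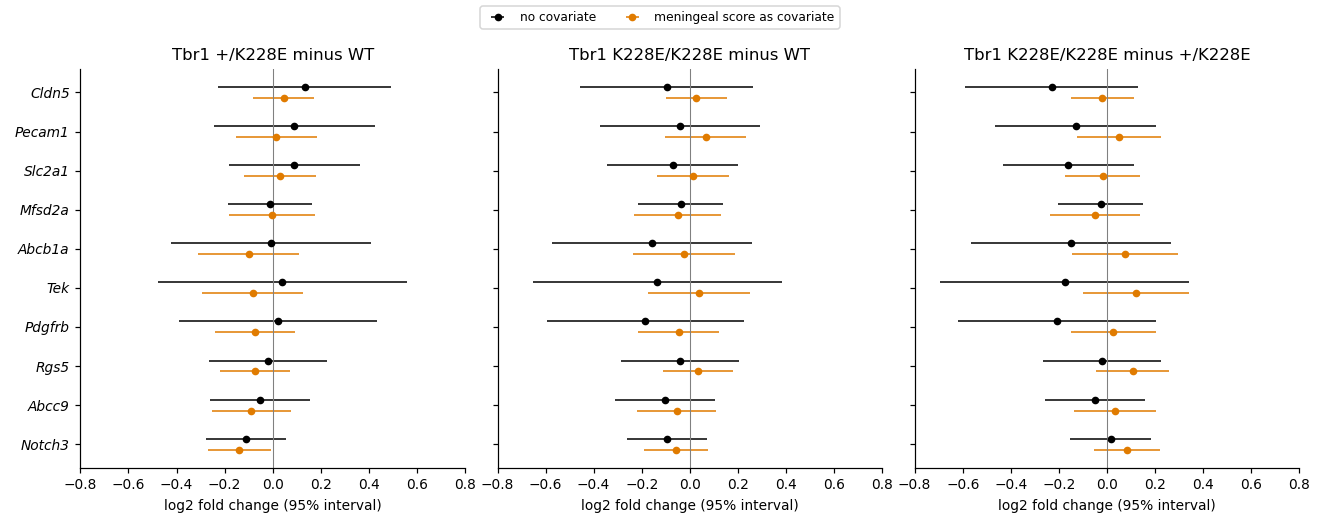
Log2 fold change (horizontal axis) with its 95% interval for each of the 10 genes in the 3 comparisons, without a covariate (black) and with the meningeal score as a covariate (orange). All 60 intervals but that of *Notch3* with the covariate in Tbr1+/K228E embryos (-0.27 to -0.01) include 0, and most orange intervals are narrower than the black ones.

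Most of the 10 genes moved together from embryo to embryo once the mean of each genotype was removed. The values that follow are descriptions over 15 embryos, or over the 12 with the higher meningeal scores, and all genes of an embryo share its library and size factor. *Cldn5*, *Pecam1*, *Slc2a1*, *Abcb1a*, and *Tek* correlated with one another with Pearson r between 0.81 and 0.97 (median 0.92 over 10 pairs, n = 15), and with r between 0.44 and 0.93 (median 0.83, n = 12) without the 3 embryos. *Abcb1a* and *Tek* were the closest pair in the 15 embryos (r = 0.97, Spearman rho 0.95), and *Pecam1* and *Pdgfrb* in the 12 (r = 0.95). The 4 pericyte genes were less alike, with r between 0.27 and 0.82 (median 0.72, n = 15), and between -0.28 and 0.68 (median 0.43, n = 12). Over all 45 pairs the median r was 0.79 in 15 embryos and 0.54 in 12, so that part of the likeness rested on the 3 embryos.

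*Mfsd2a* stood apart from the other endothelial genes. Its r with the other 9 genes lay between -0.32 and 0.10 in 15 embryos, and in the 12 embryos it was highest with *Notch3* (r = 0.73). *Notch3* had a median r of 0.52 with the other genes in 15 embryos and of 0.17 in 12. With the mean of 20 further mural genes its r was 0.63 in 15 embryos and 0.18 in 12. With the mean of 10 forebrain genes its r was -0.72 and -0.45 in the same order. What its level says about mural cells was not tested. Endothelial and pericyte genes otherwise crossed freely. *Cldn5* and *Pdgfrb* had r = 0.96 (Spearman rho 0.91) in 15 embryos and r = 0.90 in 12, which is higher than any pair of pericyte genes.

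**Figure D3:**
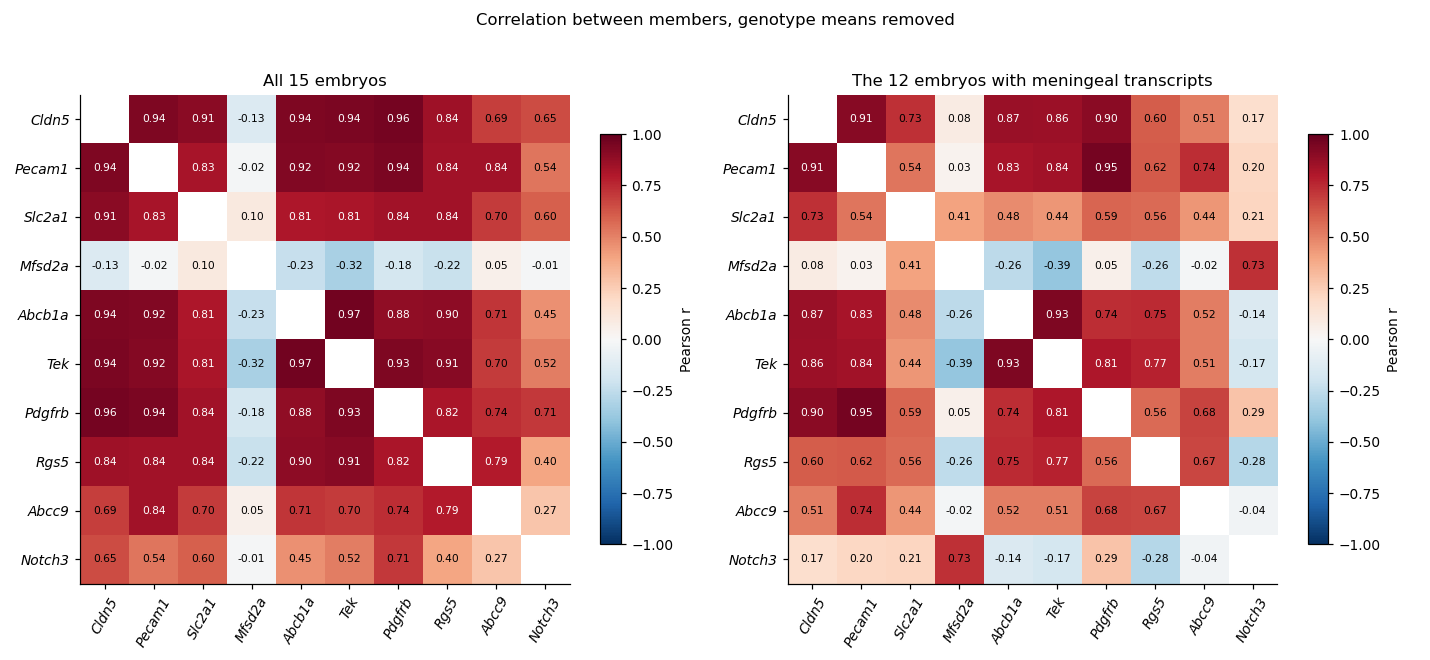
Pearson r of each pair of the 10 genes on log2(normalized read count + 1) after the genotype means were removed, in all 15 embryos (left) and in the 12 with the higher meningeal scores (right); color runs from -1 to 1. The row of *Mfsd2a* is near or below 0 on the left (-0.32 to 0.10), and the block of *Cldn5*, *Pecam1*, *Abcb1a*, *Tek*, and *Pdgfrb* stays dark on the right.

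The genes that were most like the mean of the 6 endothelial genes, among 13532 others with a mean of at least 50, were *Nid2* (r = 0.98), *Uaca* (0.98), *Cxcl12* (0.98), *Bmp7* (0.98), and *C130074G19Rik* (0.98, n = 15). In the 12 embryos their r was between 0.94 and 0.98. For the 4 pericyte genes they were *Arap3* (0.98), *Tie1* (0.98), *Stab1* (0.97), *Trabd2b* (0.97), and *Ror1* (0.97, n = 15), and in the 12 embryos r was between 0.91 and 0.94. Many genes followed the same course, since 613 genes had r over 0.8 with the endothelial mean and 598 with the pericyte mean.

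Meningeal, microglial, blood, and choroid plexus markers followed the vessel genes also within the 12 embryos with the higher meningeal scores. The mean of the 6 endothelial genes and the meningeal score had r = 0.92 (Spearman rho 0.92, n = 12), and r = 0.86 without the 2 embryos farthest from the median score. Its r was 0.72 with 10 microglial and macrophage genes and 0.75 with 11 genes of blood cells, of which 3 had a mean under 5, the latter being 0.46 without the 2 farthest embryos. With 9 choroid plexus genes r was 0.70, and this rested on 2 embryos, since it was 0.35 without them. The forebrain and cell-cycle lists had r of 0.62 and 0.72, which were 0.34 and 0.53 without the 2 farthest embryos, and the hindbrain and muscle lists had r of -0.15 and -0.48. Over all 15 embryos, however, r was -0.14 with the forebrain list and 0.25 with the cell-cycle list. In Tbr1K228E/K228E relative to WT embryos, limma called 0 of 10 microglial, 8 blood, 9 choroid plexus, 5 muscle, 14 hindbrain, 10 forebrain, and 14 cell-cycle genes tested. At an unadjusted 0.05 it called 1 muscle and 1 forebrain gene (background over all tested genes 3.23%). For the pericyte mean, r was 0.85 with the meningeal score (rho 0.83, n = 12). Single genes differed here. *Pecam1* had r = 0.93 with the meningeal score, *Pdgfrb* 0.92, *Tek* 0.91, *Cldn5* 0.91, and *Abcb1a* 0.88, whereas *Rgs5* had 0.60, *Abcc9* 0.59, *Slc2a1* 0.48, *Notch3* 0.14, and *Mfsd2a* -0.18 (n = 12 each). Whole meninges and choroid plexus hold vessels of their own, and the part of these tissues in the vessel counts was not tested beyond the fits with the score.

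**Figure D4:**
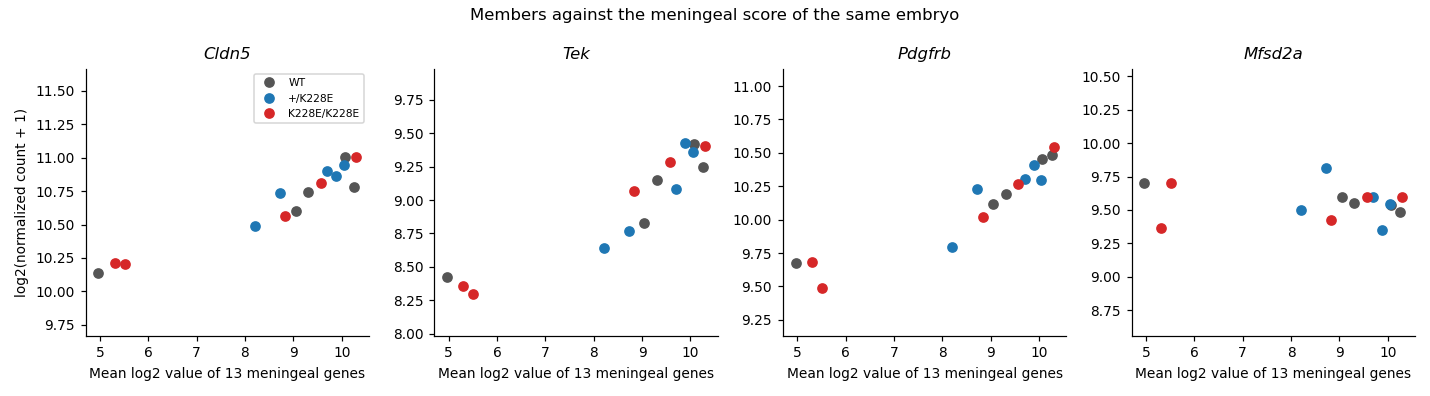
Log2(normalized read count + 1) of *Cldn5*, *Tek*, *Pdgfrb*, and *Mfsd2a* (vertical axes, each spanning 2 log2 units) against the meningeal score of the same embryo, the mean log2 value of 13 genes (horizontal axis); colors are genotypes. The 3 embryos at scores of 4.97 to 5.51 are low for the first 3 genes, whereas for *Mfsd2a* they lie at 832, 832, and 658, and the 12 others also rise with the score in the first 3 panels.

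Of 26 further endothelial genes 0 passed the adjusted threshold in Tbr1K228E/K228E relative to WT embryos, with 3 above 0 and 23 below (median log2 fold change -0.12). The genes with the smallest unadjusted p were *Tnfrsf19* (-0.14), a receptor tied to Wnt signaling in brain endothelium, and *Flt1* (-0.14), a VEGF receptor. Of 20 further mural genes 0 passed, with 1 above 0 and 19 below (median -0.16), and the smallest unadjusted p-values belonged to *Foxs1* (-0.37), a forkhead factor of pericytes, and *Cspg4* (-0.16), which encodes NG2. Their adjusted p-values were 1.00 by limma, and *Foxs1* was the 1 gene of both lists under an unadjusted 0.05 (background over all tested genes 3.23%). Of 7 tested genes of vessels without a barrier 0 passed, and *Plvap*, which builds the diaphragms of such vessels, stood at -0.28 on the log2 scale and *Flt4*, a VEGF receptor of lymphatic and fenestrated vessels, at -0.16, both with an adjusted p of 1.00. The 13 meningeal genes had a median log2 fold change of -1.10 in the same comparison, of 0.57 in Tbr1+/K228E against WT, and of -1.64 between the mutants, with 0 past the threshold in each. In Tbr1+/K228E embryos relative to WT, 21 of the 26 endothelial and 13 of the 20 mural genes were above 0, and 0 passed.

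The signals that act on these vessels were measured in the same embryos. Of 26 ligands, receptors, and targets, 1 passed the adjusted threshold, and it was *Wnt7b*. The background over all tested genes was 0.127% in Tbr1K228E/K228E relative to WT embryos and 0.0788% between the mutants. The count of *Wnt7b* is given here by embryo. Its count was 2688, 2819.9, 3205, 2083, and 2584 in WT and 2129, 2731, 2648, 3135, and 2656 in Tbr1+/K228E replicates 1 to 5. In Tbr1K228E/K228E replicates 1 to 5 it was 1669, 1538, 1684, 1353, and 1461, so that each of these embryos lay below every embryo of the other genotypes. *Wnt7b* fell by 0.79 on the log2 scale relative to WT (standard error 0.11, adjusted p = 0.00493) and by 0.78 relative to Tbr1+/K228E embryos (adjusted p = 0.00897 by limma). In the 12 embryos with the higher meningeal scores the log2 fold changes were -0.70 and -0.76. The adjusted p-values, however, were 0.120 and 0.0558 in this smaller fit (limma). The paper had already listed *Wnt7b* among the genes lowered in Tbr1K228E/K228E embryos in these data. Its qRT-PCR, for which *Wnt7b* primers are given, bore out *Tbr1* and *Reln*. It did not bear out the other genes tested, although their changes had similar directions. The WT value of *Wnt7b* was highest in replicate 3, where 9 of the 10 vessel genes, all but *Mfsd2a*, had their lowest WT value. This is 1 embryo, with the lowest meningeal score (4.97) and the highest forebrain score (11.6) of the WT embryos.

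The close relative *Wnt7a*, which acts through the same receptor complex, had a log2 fold change of 0.13 (standard error 0.11, adjusted p = 1.00) in Tbr1K228E/K228E relative to WT embryos. For the other ligands, in the same comparison, the log2 fold change was -0.02 for *Vegfa*, the main growth signal of vessels, -0.03 for *Pdgfb*, 0.19 for *Angpt1*, the ligand of Tie2, -0.01 for *Dll4*, and -0.06 for *Jag1*, both ligands of Notch receptors, with an adjusted p of 1.00 for each (limma). Each of them had counts that overlapped between the 3 genotypes. Targets of Wnt signaling, *Axin2* and *Lef1*, which were named after their values were seen, did not pass, with *Axin2* at 1514.5 ± 189 in WT and 1516 ± 255 in Tbr1K228E/K228E embryos (SD, n = 5 each). *Apcdd1*, a Wnt antagonist that is itself a target in brain endothelium, and *Hey1*, a target of Notch, had unadjusted p of 0.0285 and 0.0312 at log2 fold changes of -0.33 and -0.18, were chosen after their values were seen, and had adjusted p of 1.00 (limma). Of the 26 ligands, receptors, and targets, 3 were under an unadjusted 0.05 in Tbr1K228E/K228E relative to WT embryos (background 3.23%).

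**Figure D5:**
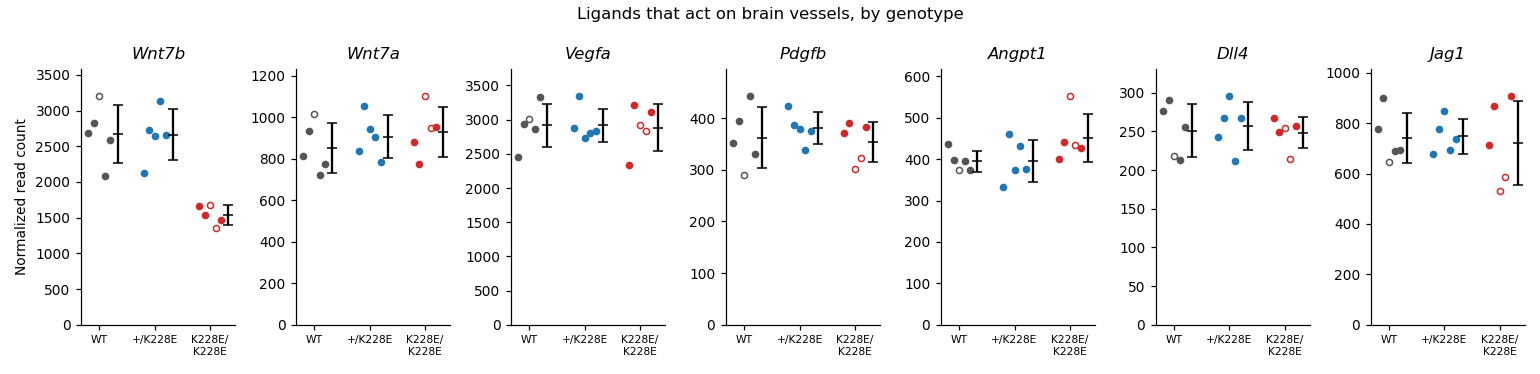
Normalized read count (vertical axis, from 0) of 7 ligands in every embryo, by genotype; points are embryos, bars are mean ± SD (n = 5), and open points are the 3 embryos with a low meningeal score. *Wnt7b* lies between 1353 and 1684 in Tbr1K228E/K228E embryos, below all WT values (2083 to 3205), and the other 6 ligands overlap.

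The values of the 2 sides can be set next to each other. WT embryos had a *Wnt7b* count of 2676 ± 407, and Tbr1K228E/K228E embryos one of 1541 ± 139.9 (mean ± SD, n = 5 each). In the same embryos, *Mfsd2a*, a gene of mature barrier endothelium, was 762 ± 43.8 and 744 ± 70.5 (SD, n = 5 each). *Mfsd2a* did not follow the other endothelial genes here, with r = -0.15 with the mean of 26 further ones (n = 15). What its level says about the endothelium was not tested. *Slc2a1* was 2235 ± 314 and 2148 ± 464 (SD, n = 5 each). *Cldn5* was 1642 ± 342 and 1544 ± 381, a log2 fold change of -0.10 with a 95% interval from -0.46 to 0.26. With the meningeal score as a covariate the log2 fold change was 0.03, with a 95% interval from -0.10 to 0.15. That score had r = 0.95 with *Cldn5* itself (n = 15), so this fit also removes a change that the 2 share.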

How the data were processed

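RNA-Seq values of 15 embryos (5 per genotype) were used, and groups, sexes, and replicate numbers came from the labels. The authors prepared libraries with a TruSeq RNA kit that does not mark the strand, estimated transcript abundance with Salmon 0.11.2 on GRCm38 with GC bias correction, summed it to genes with tximport, and divided it by DESeq2 1.22.2 size factors (R 3.5.3). The deposited values are thus a normalized signal per gene, called a normalized read count, from which whole reads were not recovered, so that depth is an estimate.

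Genes were matched by Ensembl identifier to GENCODE M21, which gave coordinates and exon lengths. Values were tested as log2(value + 1) in R 4.3.3 with limma 3.58.1 (lmFit, eBayes with a trend) over all 15 embryos, for 16507 genes with a mean of at least 5, with Benjamini–Hochberg correction. This scale understates changes of low genes. For the members, all 252 splits of 5 against 5 embryos gave a two-sided exact permutation test. Scores are mean log2 values of a list, and likeness was computed after genotype means were removed. The fit was tested on simulated data with independent noise for each gene. It thus does not cover the shared variation of genes within an embryo that is described above.

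The members and lists were chosen with earlier results of these data known. Named were the 10 members, 7 ligands, the 5 genes most like each group of members, and from other lists the genes past the threshold or, with none, the 2 with the smallest p between Tbr1K228E/K228E and WT embryos. Single markers of other tissues, a near copy, and a few targets were named outside this rule, after their values were seen. The blood, muscle, forebrain, hindbrain, and cell-cycle lists served as markers of other cells. Log2 fold changes are relative to the second genotype named.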

Additional observations from a re-analysis of the deposited data

How the results depend on the processing

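The count of 0 of the 10 genes past the adjusted threshold held in all 3 comparisons under each alternative that was run. These included pseudocounts of 0.1 and 10, a filter at a mean of 50 or none, and upper-quartile and quantile scaling. Sex, the meningeal score, the hindbrain score, or the other endothelial score was a covariate in others. Further ones were robust eBayes, a fit of the 2 genotypes alone, an empirical null, each embryo left out in turn, and the 12 embryos. The meningeal and other endothelial scores had r = 0.94 and 0.98 with the endothelial mean (n = 15). Fits with these 2 scores remove a change shared by the vessel genes and so could not show one. Over all tested genes, 21 passed between Tbr1K228E/K228E and WT embryos, against 12 with the 2 genotypes alone, 42 with the empirical null, 7 in the 12 embryos, and 12 to 21 with 1 embryo left out (12 or 13 without WT replicate 1 or 2 or Tbr1K228E/K228E replicate 3 or 4). Between the mutants 13 passed, against 2 with the replicate block, 0 in the 12 embryos, and 6 to 8 with 1 embryo left out, whichever it was. The cause of these lower and higher counts was not tested. With the replicate block 0 of the 10 genes passed, and *Wnt7b* had an adjusted p of 0.0646 between the mutants (limma), where its alternatives ranged up from 0.00224. The replicate numbers were not taken to pair the embryos, since deviations of same-numbered embryos correlated between 0.02 and 0.51 for Tbr1K228E/K228E and WT, between -0.21 and 0.22 for Tbr1+/K228E and WT, and between -0.23 and 0.35 for the mutants, and 2, 1, and 2 of 5 numbers matched best with themselves. *Wnt7b* passed in 24 of 25 alternatives relative to WT and in 23 of 25 between the mutants. The lowest value of any of the 10 genes was 230.3, for *Abcb1a*, so that low counts bear on *Abcb1b* and not on the members.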

Other observations

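The male and female embryos were also set side by side after the genotype means were removed. Male minus female differences on the log2 scale ran from -0.21 for *Tek* and -0.17 for *Abcb1a* to 0.06 for *Notch3*, and with sex as a covariate 0 of the 10 genes passed in any comparison. A test of sex alone was not run. Of 30 sets of 5 embryos (10 genes in 3 genotypes), 0 held a value far enough from the others to be set apart by Dixon's criterion (0.71 for 5 embryos).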
